A study of Mus musculus with 9 samples.

Results

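The genes described are 10 antioxidant and glutathione genes, Slc7a11, Gclc, Gclm, Gsr, Gsta4, Txnrd1, Srxn1, Nqo1, Cat and Sod2, in mouse embryonic fibroblasts that differ in Oga. They were chosen by name, and all 23 probe sets that the platform annotation gives to these symbols were used, of 34945 probe sets that carry 1 symbol for 18193 genes in all. Each of the 10 genes had at least 1 probe set past the filter on low values, and 21 of the 23 probe sets passed it. The gene-level tests covered 12962 genes.

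Expression was measured on 9 Affymetrix arrays, 3 for each of 3 lines of MEFs (mouse embryonic fibroblasts, primary cultures grown from embryos). The KO line has lost both copies of Oga, the Het line is heterozygous for the deletion and the WT line is wild type. Oga encodes O-GlcNAcase, which takes the sugar O-linked N-acetylglucosamine off proteins, so the comparisons ask how expression differs when 1 or both copies are missing. All of the embryos were female, came from an intercross of Oga heterozygotes and were collected at E12.5. The heterozygotes descended from a floxed Oga male (background C57B1/6) and an MMTV-Cre female, in which a viral promoter best known from mammary epithelium drives the recombinase, and all lines were grown in DMEM. Each genotype is 1 line, and the design text calls the 3 arrays of a line technical replicates. Every p-value therefore measures the spread between arrays of a line, and genotype cannot be told apart from any other difference between the lines.

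Cells keep hydrogen peroxide and other oxidants in check with the tripeptide glutathione and with the thioredoxin system, both of which draw their reducing power from NADPH. Many of the genes involved are switched on by the transcription factor NRF2, encoded by Nfe2l2, which is held back by KEAP1 and binds antioxidant response elements together with small MAF proteins. Catalase and manganese superoxide dismutase act on the oxidants directly, catalase mainly in peroxisomes and the dismutase in mitochondria.

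The core of the antioxidant response element was sought as TGACNNNGC on both strands of RefSeq promoter windows, which run from 250 bases before to 50 bases after a start site on GRCm38.p6. The table held 9 windows for 7 of the 10 genes, Nqo1, Gclm, Txnrd1 with 3 start sites, Srxn1, Slc7a11, Cat and Sod2. The core stood in 3 of these windows, those of Gclm, Srxn1 and the second Txnrd1 start site, and it stood in 12.39% of all 32851 windows. The 3 are shown because they carry the core, and that of Cat, without it, because Cat had the largest KO difference. Each is written along its gene, and capitals mark the core, which lies on the opposite strand in all 3. The Gclm window is chr3:122245307-122245606 on the plus strand, the Txnrd1 window chr10:82858956-82859255 on the plus strand, the Srxn1 window chr2:152105274-152105573 on the plus strand and the Cat window chr2:103485104-103485403 on the minus strand.
Gclm: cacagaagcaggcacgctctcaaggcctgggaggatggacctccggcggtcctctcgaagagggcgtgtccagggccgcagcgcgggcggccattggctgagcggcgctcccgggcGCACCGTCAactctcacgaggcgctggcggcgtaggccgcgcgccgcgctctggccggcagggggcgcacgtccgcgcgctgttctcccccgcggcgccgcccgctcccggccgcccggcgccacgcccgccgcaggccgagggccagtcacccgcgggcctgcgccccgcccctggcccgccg
Txnrd1: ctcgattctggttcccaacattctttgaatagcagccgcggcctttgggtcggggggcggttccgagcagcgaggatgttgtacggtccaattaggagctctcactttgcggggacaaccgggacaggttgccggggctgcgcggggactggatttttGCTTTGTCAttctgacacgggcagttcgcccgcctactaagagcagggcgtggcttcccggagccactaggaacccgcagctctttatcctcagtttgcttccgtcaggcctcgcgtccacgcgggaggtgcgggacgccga
Srxn1: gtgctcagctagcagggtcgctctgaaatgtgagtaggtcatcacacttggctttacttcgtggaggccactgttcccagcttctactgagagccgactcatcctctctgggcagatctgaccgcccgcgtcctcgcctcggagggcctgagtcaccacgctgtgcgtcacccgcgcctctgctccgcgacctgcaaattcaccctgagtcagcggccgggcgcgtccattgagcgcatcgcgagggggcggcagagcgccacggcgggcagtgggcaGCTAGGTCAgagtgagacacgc
Cat: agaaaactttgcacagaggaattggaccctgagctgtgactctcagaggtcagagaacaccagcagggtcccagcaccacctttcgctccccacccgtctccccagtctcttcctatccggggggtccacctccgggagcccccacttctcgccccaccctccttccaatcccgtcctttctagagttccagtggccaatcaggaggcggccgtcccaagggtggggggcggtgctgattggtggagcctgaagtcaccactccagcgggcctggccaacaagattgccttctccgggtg
Counted to the first base of the match, with the start site as base 1, the core lay at -134 in Gclm, at -92 in Txnrd1 and at 29 in Srxn1. The related AP-1 core TGANTCA, found in 7.808% of all windows, occurred at -102 and -45 in Srxn1 and did not overlap the capitals. The match at -45 reads on as TGAGTCAGC, which differs from the sought core only in having G in place of C. Forms with G at that base were not sought, so this stretch is not in capitals and is not counted. Among the genes whose windows carry the core, the KO line had more Txnrd1 and less Gclm transcript than WT, as given below, and Srxn1 did not pass that comparison. These matches describe letters only, and binding was not measured.

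The labels held for Oga. Its most abundant probe set averaged 6.06 ± 0.026 in the KO line, 11.16 on all 3 arrays of the Het line and 11.92 ± 0.033 in the WT line (log2 expression value, SD, n = 3 arrays). Arrays of a line correlated at r of at least 0.997 over all probe sets, and KO with WT arrays at 0.989 to 0.991. The 3' minus 5' difference of control transcripts, which reflects RNA quality, stood apart in the Het line. For actin it was 0.07 ± 0.019 in KO, 0.11 ± 0.015 in Het and 0.07 ± 0.011 in WT arrays, and for GAPDH it was -0.07 ± 0.032 in KO, -0.0020 ± 0.0059 in Het and -0.08 ± 0.0097 in WT arrays (log2, SD, n = 3). Fibroblast markers averaged 12.99 to 13.06 on KO, 13.29 to 13.31 on Het and 13.36 to 13.37 on WT arrays, and of the 12 tested 2 were higher, 5 were lower and 5 did not pass between KO and WT, with Pdgfra lowest at -2.55. The count of 2 was 0 or 1 when any 1 KO or WT array was left out. Between KO and WT 21.6% of all genes were higher and 31.5% lower, and 3.56% also differed by 2-fold. These shares are to be read beside the marker counts here. Markers of other cells moved too. All of the 21 macrophage and blood markers tested were lower in KO than in WT, 20 of them by 2-fold or more, and their mean per array was 9.27 to 9.31 in KO, 10.73 to 10.80 in Het and 11.14 to 11.17 in WT. Skeletal muscle markers past the filter were higher in 14 of 15 cases (8.06 to 8.13 in KO, 7.55 to 7.69 in Het, 7.0 to 7.02 in WT). Another 5, Myf5 and Myod1 among them, lay below the filter. Smooth muscle markers were higher in 13 of 15, with 1 lower (11.18 to 11.21 in KO, 10.71 to 10.78 in Het, 10.41 to 10.45 in WT). Of 6 epithelial markers past the filter 5 were higher in KO than in WT, led by the keratin genes Krt18 (1.68) and Krt19 (1.26), and 7 others, Cdh1 among them, lay below it. Most endothelial and erythroid markers (7 of 12 and 8 of 9) lay below the filter value of 6.22. The part of these cells in the antioxidant results was not tested, and fewer cells of a type cannot be told apart from less RNA per cell.

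In the KO line the catalase gene Cat, the thioredoxin reductase gene Txnrd1 and the glutathione synthesis gene Gclc were higher than in the WT line, while Gclm and the transferase gene Gsta4 were lower. A gene passed at a limma adjusted p below 0.05, with adjustment over all genes tested, and was called when it also differed by 2-fold. Of the 10 genes 3 passed as higher and 2 as lower, against 21.6% and 31.5% of all genes. None of the 10 reached 2-fold, which 3.56% of all genes did, and the largest difference was 1.54-fold, in Cat. The median log2 difference was -0.02 over the 10 genes and -0.03 over all genes, so as a group they stood close to the background.

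In the Het line Cat was higher than in WT, and the glutathione reductase gene Gsr and the sulfiredoxin gene Srxn1 were lower. That is 1 of 10 higher and 2 of 10 lower, where 13.4% and 21.0% of all genes passed. Cat and Srxn1 did not pass between Het and WT at their other probe sets, as given with each gene. None of the 10 reached 2-fold, which 0.255% of all genes did, and the medians were -0.07 for the 10 genes and -0.01 for all genes. KO vs WT and Het vs WT share the WT arrays, so their values stand side by side and are not independent.

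Set against the Het line, the KO line had 5 of 10 genes higher, namely Cat, Txnrd1, Gclc, Gsr and Srxn1, and 2 of 10 lower, Gclm and Gsta4. The shares of all genes were 23.7% and 28.6%, and 2.0% of all genes reached 2-fold but none of the 10 did. The median difference was 0.15 over the 10 genes and -0.02 over all genes. For Gclm and Gsta4 every KO array lay below every Het array, but whether these genes passed here depended on single arrays, as given with each gene. Overlap between lines, here and below, was looked at for the 10 genes only, and its share among all genes was not counted. Neither Gclm nor Gsta4 passed at any of its probe sets in the fit among all 45037 probe sets, as given further below.

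**Figure D1:**
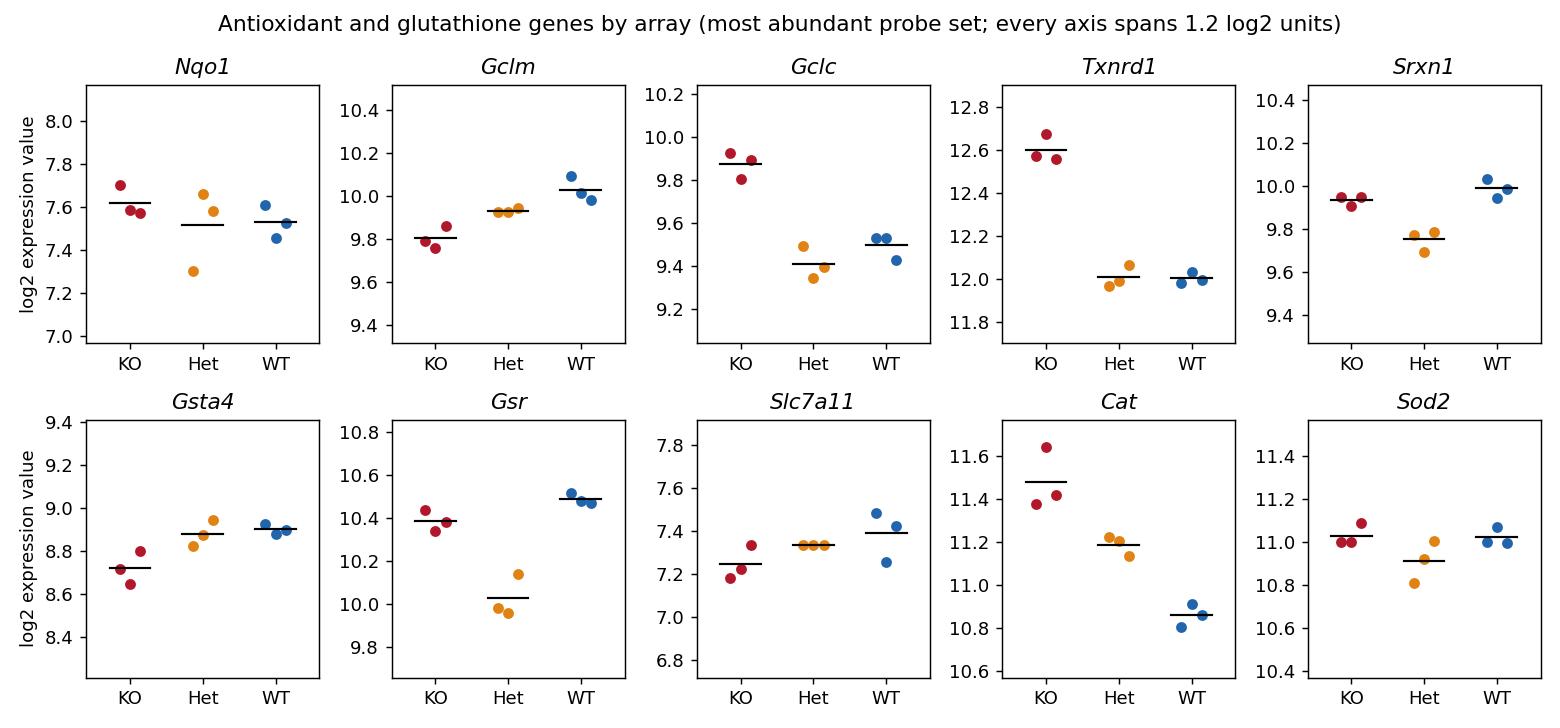
Log2 expression value (vertical axis, spanning the same number of log2 units in each panel) of the most abundant probe set of the 10 genes on each of the 3 arrays of the KO, Het and WT lines. Points are arrays and horizontal bars are line means. At this probe set the 3 lines are fully separated for Cat, Gclm and Gsr. The share of all genes with such separation was not counted. For Txnrd1 and Gclc only the KO line stands apart, at means of 12.60 and 9.88.

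Slc7a11 encodes the cystine transporter that feeds glutathione synthesis. It read 7.18, 7.22 and 7.34 on the KO arrays, 7.34 on each of the 3 Het arrays, and 7.48, 7.26 and 7.43 on the WT arrays. The lines overlapped, and the 3 Het values were equal to the last deposited digit. The KO line differed from WT by -0.14 ± 0.060 on the log2 scale (SE, 95% interval -0.27 to -0.01, limma adjusted p = 0.0691), which does not pass. It passed without WT replicate 2 (-0.21) or without KO replicate 3 (-0.19). Het minus WT was -0.05 (interval -0.18 to 0.08, limma adjusted p = 0.538). The other Slc7a11 probe set read 5.06 to 5.38 over the 9 arrays, below the filter value.

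Gclc and Gclm encode the catalytic and the modifier subunit of glutamate-cysteine ligase, the rate-limiting enzyme of glutathione synthesis, and they differed in opposite directions. Gclc read 9.93, 9.81 and 9.89 on the KO arrays, 9.49, 9.34 and 9.40 on the Het arrays, and 9.53, 9.53 and 9.43 on the WT arrays. Every KO array lay above every other array, whereas Het and WT overlapped. Gclc was 1.30-fold higher in KO than in WT (log2 difference 0.38 ± 0.052, interval 0.26 to 0.49, limma adjusted p = 9.9e-05) and 1.38-fold higher than in Het (0.46, limma adjusted p = 2.6e-05). The Het line differed from WT by -0.09 (interval -0.20 to 0.03, limma adjusted p = 0.229). A second Gclc probe set, fitted among all 45037 probe sets, was also higher in KO, by 0.28 against WT (limma adjusted p = 0.00833) and by 0.45 against Het.

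The modifier subunit gene Gclm read 9.79, 9.76 and 9.86 on the KO arrays, 9.93, 9.93 and 9.95 on the Het arrays, and 10.10, 10.02 and 9.98 on the WT arrays. The lines did not overlap and lay in the order of Oga copies, with KO lowest. Gclm was 1.17-fold lower in KO than in WT (log2 difference -0.23 ± 0.043, interval -0.32 to -0.13, limma adjusted p = 0.00102). The step from Het to KO was smaller, at -0.13 (limma adjusted p = 0.0280), and did not pass without Het replicate 2 or 3 or without KO replicate 1 or 2, with values from -0.13 to -0.11. Het minus WT was -0.10 (interval -0.19 to -0.0040, limma adjusted p = 0.0998). The second Gclm probe set gave -0.24 for KO minus WT (limma adjusted p = 0.0314), which was lost without WT replicate 1 or 3 or KO replicate 2 or 3. It gave -0.25 for Het minus WT (limma adjusted p = 0.0374), lost without any 1 Het array, WT replicate 1 or 3 or KO replicate 2. Its KO and Het arrays overlapped, with KO minus Het at 0.0054 (limma adjusted p = 0.971). The order of Oga copies was thus not seen at this probe set.

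Gsr encodes glutathione reductase, which returns oxidised glutathione to its reduced form with NADPH, and it was lowest in the Het line. It read 10.44, 10.34 and 10.39 on the KO arrays, 9.98, 9.96 and 10.14 on the Het arrays, and 10.52, 10.48 and 10.47 on the WT arrays. All Het arrays lay below all others. Gsr was 1.38-fold lower in Het than in WT (log2 difference -0.46 ± 0.051, interval -0.57 to -0.35, limma adjusted p = 8.0e-05), and in KO it was 0.36 above Het (limma adjusted p = 0.000153). KO arrays were also below WT without overlap, but the difference of -0.10 (interval -0.22 to 0.01, limma adjusted p = 0.120) did not pass. The Het line thus lay 0.41 below the midpoint of KO and WT (het minus midpoint -0.41, a description). The second Gsr probe set gave -0.18 for Het minus WT (limma adjusted p = 0.0435), a call lost when any array but Het replicate 2 was left out. Its KO minus Het was 0.17 (limma adjusted p = 0.0439), lost without WT replicate 1 or 3, Het replicate 1 or 3 or any 1 KO array. The part of the Het line's 3' minus 5' signals, given above, in the Gsr values was not tested, nor was it for Srxn1 and Cat below.

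Gsta4 encodes a glutathione S-transferase known for conjugating 4-hydroxynonenal, a product of lipid peroxidation. It read 8.72, 8.65 and 8.80 on the KO arrays, 8.82, 8.87 and 8.94 on the Het arrays, and 8.93, 8.88 and 8.90 on the WT arrays. KO arrays lay below all others, and Het and WT overlapped. Gsta4 was 1.13-fold lower in KO than in WT (log2 difference -0.18 ± 0.048, interval -0.29 to -0.07, limma adjusted p = 0.00860). KO minus Het was -0.16 (limma adjusted p = 0.0170) and did not pass without Het replicate 3 (-0.13) or KO replicate 2 (-0.12). The difference of Het from WT was -0.02 (interval -0.13 to 0.09, limma adjusted p = 0.769).

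Txnrd1 encodes cytosolic thioredoxin reductase and had the smallest adjusted p of the 10 genes between KO and WT. It read 12.57, 12.68 and 12.55 on the KO arrays, 11.96, 11.99 and 12.07 on the Het arrays, and 11.98, 12.03 and 11.99 on the WT arrays. KO stood apart, while Het and WT overlapped. Txnrd1 was 1.51-fold higher in KO than in WT (log2 difference 0.60 ± 0.045, interval 0.50 to 0.70, limma adjusted p = 8.1e-07) and 1.51-fold higher than in Het (0.59, limma adjusted p = 1.3e-06). The Het line differed from WT by 0.0047 (interval -0.09 to 0.10, limma adjusted p = 0.947).

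The probe sets of Txnrd1 disagreed about the Het line. A second one read 9.80, 9.47 and 9.50 on the KO arrays, 8.68, 8.45 and 8.60 on the Het arrays, and 9.09, 9.04 and 8.98 on the WT arrays, with no overlap between the 3 lines. There KO was 0.55 above WT and 1.01 above Het (limma adjusted p = 2.1e-05), while Het was 0.46 below WT (limma adjusted p = 0.00542). The difference of 1.01 is just past 2-fold and ranged from 0.91 to 1.07 over the alternatives tried. The third lay below the filter value on average and gave 0.33 for KO minus WT and -0.28 for Het minus WT (limma adjusted p = 0.0311). The Het call there was lost without any 1 WT array or Het replicate 1 or 2. The higher KO value was thus seen at all 3 probe sets, whereas the Het value depended on the probe set. With the mean of the probe sets past the filter, Het minus WT was -0.23 (limma adjusted p = 0.00477).

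Srxn1 encodes sulfiredoxin, which restores overoxidised peroxiredoxins. It read 9.95, 9.91 and 9.95 on the KO arrays, 9.77, 9.69 and 9.79 on the Het arrays, and 10.03, 9.95 and 9.99 on the WT arrays. Het lay below both others without overlap, and KO and WT overlapped. Srxn1 was 1.18-fold lower in Het than in WT (log2 difference -0.24 ± 0.041, interval -0.33 to -0.15, limma adjusted p = 0.00136) and 0.18 higher in KO than in Het (limma adjusted p = 0.00319). KO minus WT was -0.05 (interval -0.14 to 0.04, limma adjusted p = 0.302). Its other 3 probe sets did not pass between Het and WT, at -0.17 (limma adjusted p = 0.0699), -0.03 (0.697 by the same test) and 0.13 (0.164). With the mean of all 4, neither Het minus WT (-0.08) nor KO minus Het (0.04) passed. The one at 0.13 passed as lower between KO and Het (-0.20, limma adjusted p = 0.0334), a call lost without Het replicate 1 or 2 or KO replicate 1 or 2.

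Nqo1 encodes the quinone reductase often used as a readout of NRF2. It read 7.70, 7.59 and 7.58 on the KO arrays, 7.30, 7.66 and 7.58 on the Het arrays, and 7.61, 7.46 and 7.53 on the WT arrays, so all 3 lines overlapped. KO minus WT was 0.09 ± 0.082 (interval -0.09 to 0.27, limma adjusted p = 0.378), and Het minus WT was -0.01 (interval -0.20 to 0.17, limma adjusted p = 0.907). The Het arrays spread most, with an SD of 0.19.

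Cat encodes catalase, which breaks down hydrogen peroxide, and its order was KO, then Het, then WT. It read 11.38, 11.64 and 11.42 on the KO arrays, 11.22, 11.20 and 11.13 on the Het arrays, and 10.81, 10.91 and 10.86 on the WT arrays. The 3 lines did not overlap. Cat was 1.54-fold higher in KO than in WT (log2 difference 0.62 ± 0.064, interval 0.48 to 0.76, limma adjusted p = 1.1e-05), 1.25-fold higher in Het than in WT (0.33, interval 0.18 to 0.47, limma adjusted p = 0.00288) and 1.22-fold higher in KO than in Het (0.29, interval 0.15 to 0.43, limma adjusted p = 0.00287). The Het mean lay 0.02 above the midpoint of KO and WT, which is a description with no test.

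The Het position of Cat was not seen at its other probe set. That one read 10.69, 10.70 and 10.63 on the KO arrays, 10.38, 10.34 and 10.33 on the Het arrays, and 10.43, 10.43 and 10.40 on the WT arrays. KO was again above WT, by 0.26 (limma adjusted p = 0.00157), and above Het, by 0.32 (limma adjusted p = 0.000396). Het was below WT by -0.07, however, without overlap but also without passing (limma adjusted p = 0.321). With the mean of both probe sets Het minus WT was 0.13 (limma adjusted p = 0.0485).

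Sod2 encodes the mitochondrial manganese superoxide dismutase. It read 11, 10.998 and 11.087 on the KO arrays, 10.807, 10.919 and 11.002 on the Het arrays, and 11.001, 11.07 and 10.997 on the WT arrays, with overlap throughout. KO minus WT was 0.01 ± 0.053 (interval -0.11 to 0.12, limma adjusted p = 0.937). Het minus WT was -0.11 (interval -0.23 to 0.0040, limma adjusted p = 0.125), and KO minus Het was 0.12 (limma adjusted p = 0.0829). Without Het replicate 3, both Het minus WT (-0.16) and KO minus Het (0.17) passed. Of its other 3 probe sets the lowest-valued one was lower in Het than in WT, by -0.34 (limma adjusted p = 0.00986), and the remaining ones gave 0.0050 and -0.04.

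**Figure D2:**
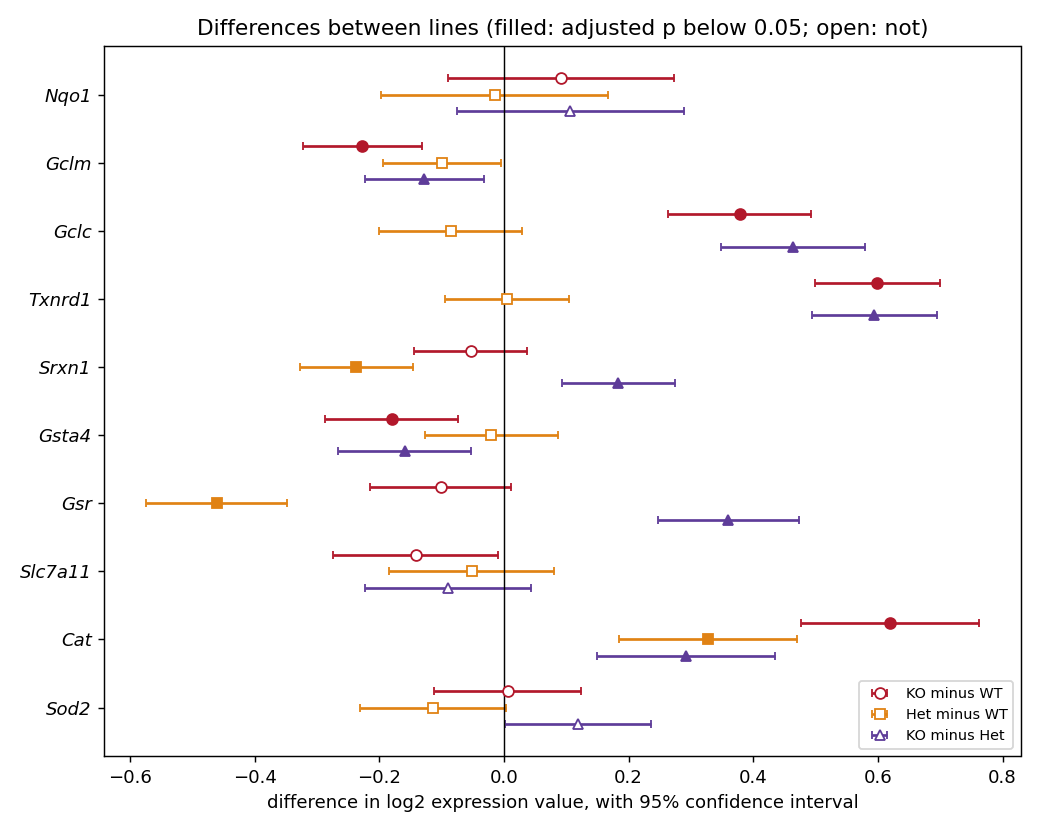
Difference in log2 expression value (horizontal axis) between lines for each of the 10 genes, with limma's 95% confidence interval; circles are KO minus WT, squares Het minus WT and triangles KO minus Het, and filled symbols have a limma adjusted p below 0.05. The KO minus WT values run from -0.23 for Gclm to 0.62 for Cat, and every interval lies within 2-fold.

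Across all 23 probe sets of the 10 genes, 7 were higher and 3 lower in KO than in WT, where 14.2% and 14.8% of all 45037 probe sets passed. Between Het and WT 1 was higher and 7 were lower, against 10.1% and 10.9%. That total of 8 was 5 when WT array 1, WT array 3 or Het array 1 was left out. Between KO and Het 10 were higher and 1 was lower, against 13.1% and 13.5%. The lower one was a Srxn1 probe set. The KO vs Het total ran from 8 to 13 over the alternatives tried and was 8 without KO replicate 1. The most abundant probe sets of Gclm and Gsta4, which passed as lower among the genes, did not pass in this fit (limma adjusted p = 0.0881 and 0.0548). The shares of all probe sets include those of low value, whereas 21 of the 23 were past the filter, so the sets are unlike. Among genes past the filter the shares were larger, at 21.6% higher and 31.5% lower for KO vs WT. Several of the 23 also belong to the same gene and are not separate cases. The 7 that were higher in KO than in WT comprised all probe sets of Gclc, Txnrd1 and Cat. The 3 lower ones were both of Gclm and that of Gsta4, the last of which did not pass without WT replicate 1 or 3 or KO replicate 1 or 2. The Gsta4 probe set also did not pass in this fit with quantile normalization (-0.14, limma adjusted p = 0.0643) or median centring (-0.16, limma adjusted p = 0.0527).

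**Figure D3:**
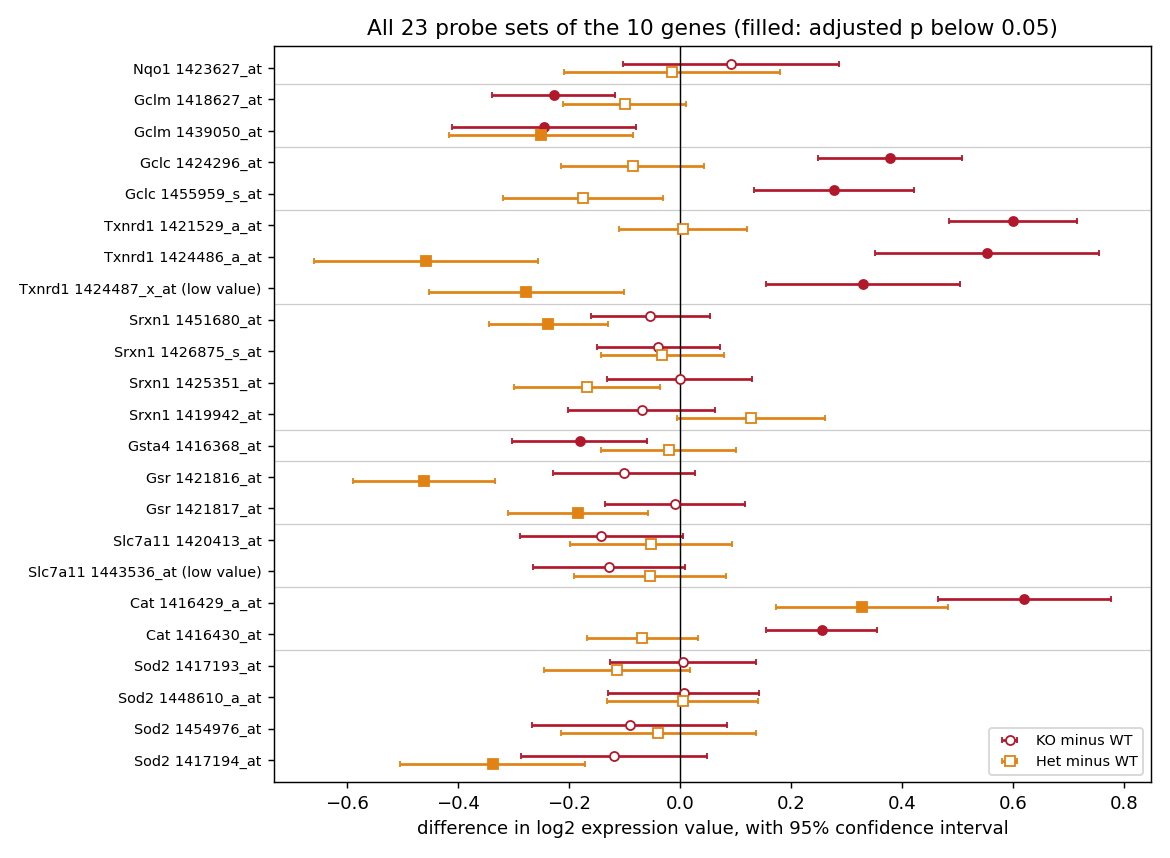
Difference in log2 expression value (horizontal axis) for all 23 probe sets of the 10 genes, with 95% confidence intervals, for KO minus WT (circles) and Het minus WT (squares); filled symbols have a limma adjusted p below 0.05 among all probe sets, and a low value marks a mean below the filter. The probe sets of Cat, Txnrd1 and Gclc lie right of 0 for KO minus WT, while for Het minus WT those of Txnrd1 run from -0.46 to 0.0047.

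Over the 9 arrays the gene tested whose values were most like those of Cat was Fbxo22 (Pearson r = 0.992), followed by Acta2 (0.986) and Atp5pb (0.985). Those most like Txnrd1 were Mllt11 (r = 0.996), Fjx1 (0.994) and Samd4 (0.994). An r above 0.99 was reached by 1 gene for Cat and by 16 for Txnrd1. The 9 points come from 3 lines and share arrays, so these values describe likeness only. They rest on the most abundant probe set of each gene, and the Het position of Cat and Txnrd1 differed at their other probe sets.

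The regulators of the pathway were measured alongside. Of 13 genes tested that encode NRF2, its partners and its inhibitors, 5 were higher, 2 were lower and 6 did not pass between KO and WT (median log2 difference 0.06). Here and in the lists that follow, the shares of all genes to read beside the counts are 21.6% higher and 31.5% lower for KO vs WT, 13.4% and 21.0% for Het vs WT, and 23.7% and 28.6% for KO vs Het. The higher count of regulators was 3 without KO replicate 1. The largest differences were in the small MAF genes Maff (0.67, limma adjusted p = 8.9e-07) and Mafk (0.59, limma adjusted p = 2.6e-07). The Het line had 2 of them higher and 3 lower than WT, led by Nfe2l2 (-0.39, limma adjusted p = 7.4e-05) and the repressor gene Bach2 (0.32, limma adjusted p = 0.00899). Against Het, the KO line had 7 higher and 2 lower, led by Maff (0.64) and Sqstm1 (0.40), an adaptor that binds KEAP1, and the higher count was 4 without Het replicate 3 and 3 without KO replicate 1.

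Because the pathway turns on them, Nfe2l2 and Keap1 are also given in the KO line, although they were chosen after their values were seen. Nfe2l2 averaged 11.16 ± 0.041 in KO, 11.02 ± 0.027 in Het and 11.41 ± 0.060 in WT (SD, n = 3 arrays), and was 1.19-fold lower in KO than in WT (log2 difference -0.25, limma adjusted p = 0.000524). Keap1 averaged 9.88 ± 0.031 in KO, 10.16 ± 0.022 in Het and 10.09 ± 0.021 in WT, and was lower in KO than in WT as well (-0.21, limma adjusted p = 0.000465). Both are transcript values and say nothing of NRF2 protein. The direction of Keap1 in Het minus WT depended on the probe set and the scaling. It stood at 0.06 with this probe set (limma adjusted p = 0.207), at 0.11 with quantile normalization (limma adjusted p = 0.0236), at -0.34 with its other probe set (limma adjusted p = 0.00762) and at -0.14 with the mean of both (limma adjusted p = 0.0432).

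Of 21 other textbook NRF2 targets tested, 6 were higher, 6 lower and 9 did not pass between KO and WT (median 0.01), beside 21.6% and 31.5% of all genes. The epoxide hydrolase gene Ephx1 was higher by 0.85 (limma adjusted p = 1.4e-08), and the heme oxygenase gene Hmox1 was lower (-0.60, limma adjusted p = 5.9e-07). In Het against WT 3 were higher and 6 lower, among which Hmox1 (-0.63) and the microsomal transferase gene Mgst1 (-0.31) differed most. The comparison of KO with Het gave 7 higher and 5 lower, led by Ephx1 (0.57) and the biliverdin reductase gene Blvrb (-0.36).

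Among 25 other genes of glutathione supply and use, 7 were higher and 10 lower in KO than in WT (median -0.03), where 21.6% and 31.5% of all genes passed. The glutathione synthetase gene Gss, which acts after glutamate-cysteine ligase, averaged 10.02 ± 0.060 in KO, 9.52 ± 0.10 in Het and 9.52 ± 0.018 in WT. Like Gclc it was higher in KO than in WT (0.50, limma adjusted p = 1.4e-05), with Het minus WT at -0.0074. The secreted glutathione peroxidase gene Gpx3 was higher by 0.54 (limma adjusted p = 3.9e-06). Between Het and WT 7 were higher and 4 lower, led by Glrx3 and the amino acid transporter gene Slc1a4. Glrx3 differed by 0.47 (limma adjusted p = 0.0170), by 0.29 without WT replicate 2, and did not pass without Het replicate 2. Slc1a4 differed by -0.36, and the mean over its probe sets gave -0.17, of which the other 2 stood at -0.21 and 0.06. Between KO and Het 6 were higher and 7 lower, led by Ggt7 (-0.67) and Gss (0.51).

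Of 18 other glutathione transferase genes tested, 1 was higher, 10 were lower and 7 did not pass between KO and WT (median -0.22), and 2 were higher without Het replicate 1. Of all genes 21.6% were higher and 31.5% lower. Gstk1, a mitochondrial and peroxisomal transferase, averaged 6.05 ± 0.099 in KO, below the filter value, 8.07 ± 0.16 in Het and 8.32 ± 0.069 in WT, a log2 difference of -2.27 between KO and WT (limma adjusted p = 1.3e-09). Gstm4 averaged 7.81 ± 0.034 in KO, 8.66 ± 0.049 in Het and 8.82 ± 0.079 in WT and was 2.02-fold lower in KO than in WT. Leaving out single arrays or changing other settings moved that difference between -1.06 and -0.96, so its place at 2-fold was not fixed. In Het against WT 1 was higher and 5 lower, the lower count being 3 without WT replicate 2 or Het replicate 1 and the higher count 2 without Het replicate 1 or 2 or KO replicate 3, led by Mgst1 (-0.31) and Gstz1 (-0.27). In KO against Het 2 were higher and 10 lower, with Gstk1 at -2.02.

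Of 19 thioredoxin, peroxiredoxin and methionine sulfoxide reductase genes, 9 were higher and 5 lower in KO than in WT (median 0.08). The sestrin gene Sesn1 was lower (-0.54, limma adjusted p = 2.9e-07), and the mean over its probe sets gave -0.32, with 1 of those past the filter at -0.0070 (limma adjusted p = 0.963). The reductase gene Msra was higher (0.53, limma adjusted p = 5.3e-05). The Het line had 2 higher and 4 lower than WT, led by Sesn3 (-0.27) and Msrb1 (0.25). Msrb1 did not pass without WT replicate 1 or 3 or Het replicate 2 or 3, where the higher count was 1, and the lower count was 2 without WT replicate 2. Against Het, 8 of these genes in the KO line were higher and 5 lower, led by Msra (0.50) and Msrb2 (0.44).

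Of 10 genes of superoxide handling tested, 1 was higher and 6 were lower in KO than in WT (median -0.46), where 21.6% and 31.5% of all genes passed. The 4 that were called, beside 3.56% of all genes, belong to the phagocyte NADPH oxidase. The catalytic subunit gene Cybb differed by -1.63, Ncf4 by -1.37, Ncf1 by -1.36 and the small GTPase gene Rac2 by -1.35, all with a limma adjusted p of at most 8.55e-09. These genes are typical of macrophages and neutrophils. The macrophage and blood markers had a median of -1.77 in the same comparison, and their part in it was not tested. In the Het line the 5 genes that passed against WT were all lower (1 was higher without Het replicate 1), led by Ncf4 (-0.60) and Cybb (-0.51), where the marker median was -0.35. Between KO and Het 1 was higher and 6 lower, with Ncf1 at -1.16 and Cybb at -1.12. Other probe sets of Ncf1 gave -0.65 and -0.74 there, short of 2-fold, and those of Cybb -0.80 and -1.24. For Het minus WT the other Cybb probe sets gave -0.80 and -0.07, the latter without passing (limma adjusted p = 0.643).

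In the NADPH supply list, 3 of 15 genes were higher and 4 lower in KO than in WT (median -0.07). The folate enzyme gene Aldh1l1 (-0.48) and the pentose phosphate gene Rpia (-0.36) differed most. In Het against WT 3 were higher and 3 lower, led by Rpe (-0.42) and Aldh1l1 (0.25), and the higher count was 1 without WT replicate 1 or 3, Het replicate 3 or KO replicate 1. Between KO and Het 4 were higher and 4 lower, led by Aldh1l1 (-0.73) and Rpe (0.35).

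Targets of ATF4, the amino acid stress factor that also drives Slc7a11, gave 3 higher and 9 lower of 20 between KO and WT (median -0.09). Nupr1 was higher (0.94, limma adjusted p = 2.5e-08) and the pseudokinase gene Trib3 lower (-0.73, limma adjusted p = 3.7e-08). Between Het and WT 5 were higher and 3 lower, the higher count being 3 without WT replicate 3, led by Cebpb (-0.42) and Nupr1 (0.42). Between KO and Het 2 were higher and 5 lower, the lower count being 9 without Het replicate 1, led by Trib3 (-0.64) and Nupr1 (0.52). The lists overlap in several genes, for example Mgst1 and Sesn2.

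**Figure D4:**
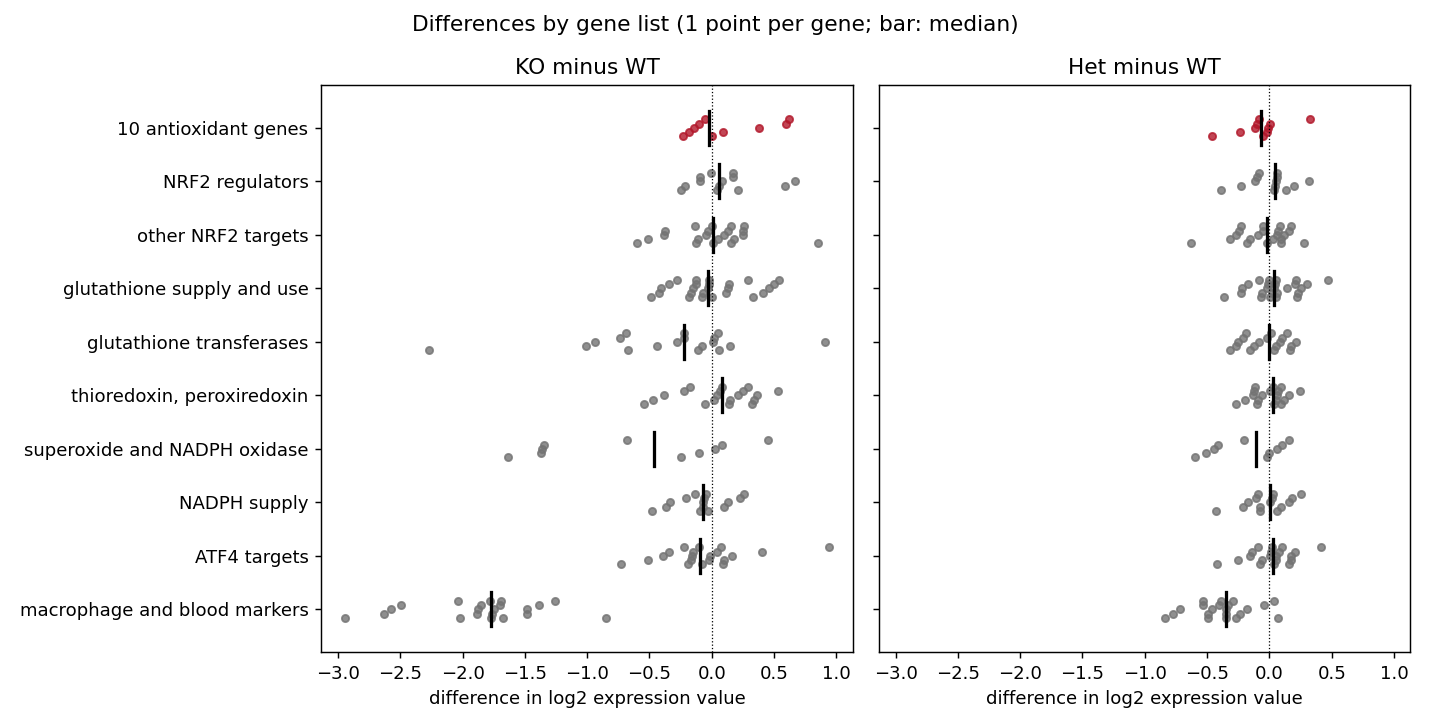
Difference in log2 expression value (horizontal axis) for the genes of each list, KO minus WT on the left and Het minus WT on the right; each point is 1 gene and black bars are list medians. For KO minus WT the 10 antioxidant genes have a median of -0.02 and the transferases one of -0.22, while the macrophage and blood markers lie at -1.77.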

How the data were processed

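The authors deposited a table of log2 expression values for 45101 probe sets on 9 Affymetrix arrays. That the logarithm is to base 2 was judged from their range. Per the submitters' processing notes the tools were GCOS and Partek, and the background correction, normalization and summarization are not given in the sources used here. The values were used as deposited.

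The 64 control probe sets were left out, and genes were named from the platform annotation (34945 probe sets with 1 symbol, 932 with several, 9160 with none). A filter removed the lowest 40% of probe sets by mean (log2 values under 6.22) and kept 27022, and the most abundant probe set stood for each of 12962 genes. Differences were fitted with limma 3.58.1 in R 4.3.3 over the 3 lines and 9 arrays, with Benjamini-Hochberg adjustment, at a threshold of 0.05. Probe sets of the 10 genes were also fitted among all 45037 without the filter, so their adjusted p-values differ from those of the genes. Promoter motifs were counted in Python 3.11.15, and figures drawn with matplotlib 3.10.9. The limma fit was tested on simulated gene values, for KO vs WT only, and the other steps were not. Arrays give no read depth, so their number limits the precision.

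The 10 genes and the lists were chosen with earlier results of these data known, and no test over a list was made. Named by rule were all 10 genes with their probe sets, Oga, from each list described at most 4 called genes or, with none called, at most 2 with the largest differences, and the 3 genes most like Cat and Txnrd1. Alternatives covered quantile normalization, median centring, no filter or a filter at 60%, other choices of probe set, a replicate block, a trended and robust variance, fits without the line not compared, a 1.5-fold minimum and each array left out. Replicate numbers did not pair the arrays, as given with the limits.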

Additional observations from a re-analysis of the deposited data

How the results depend on the processing

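Under other settings 3 directions turned where either value passed. Het minus WT was -0.23 for Txnrd1 and -0.14 for Keap1 (0.11 and also passing with quantile normalization) with the mean of probe sets, and -0.0682 for Cat with unmarked probe sets preferred, in keeping with the probe set values above. Another 12 values of the 10 genes changed sign without passing in either setting. Gclm between KO and Het did not pass with median centring (-0.08), no filter (adjusted p 0.0515) or the mean of probe sets (-0.06), nor Gsta4 with median centring (-0.11). Gclm between Het and WT passed with median centring (-0.14) and the mean of probe sets (-0.17), and Sod2 between KO and Het with median centring (0.17) and with the trended variance. With a 1.5-fold minimum 1241 genes were called for KO vs WT (462 at 2-fold), 236 for Het vs WT (33) and 895 for KO vs Het (259). With a replicate block 5 probe sets of the 10 genes passed between Het and WT, against 8 without it, and leaving out 1 array gave 5 to 7. The block changed no other count of the 10 genes or their probe sets by over 1.5 times. Same-numbered arrays deviated together with r from -0.18 to 0.21, so the numbers are not taken as pairs. Some list counts moved by over 1.5 times. With quantile normalization 4 regulators (2) and 7 NADPH genes (4) were lower in KO than in WT, 4 regulators (2), 5 thioredoxin genes (2) and 3 transferases (1) higher in Het than in WT, and 4 regulators (7) higher and 10 ATF4 targets (5) lower in KO than in Het, with the reported count in brackets. With median centring 3 ATF4 targets (5), 1 NADPH gene (3) and 1 thioredoxin gene (2) were higher in Het than in WT, and 3 other NRF2 targets (5) lower in KO than in Het. With the mean of probe sets 7 ATF4 targets (3) were higher in KO than in WT, 4 thioredoxin genes (2) and 3 transferases (1) higher in Het than in WT, and 3 thioredoxin genes (5) lower in KO than in Het. With the trended variance 5 other NRF2 targets (3) and 4 thioredoxin genes (2) were higher in Het than in WT. Without a filter 1 NADPH gene (3) was higher in Het than in WT and 8 epithelial markers (5) in KO than in WT, while the filter at 60% left 2 epithelial and 7 skeletal muscle markers (14) higher in KO. With unmarked probe sets preferred 1 thioredoxin gene (2) was higher in Het than in WT. The cause of these changes in list counts was not tested. With 1 line per genotype, no setting measures the spread between embryos.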

Other observations

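Exactly equal values on arrays of a line were seen in 6 of the 23 probe sets of the 10 genes (26.1%), close to the 24.04% of all probe sets. In 2 of the 23 (8.70%), 1 of Slc7a11 in the Het line and 1 of Txnrd1 in the WT line, all 3 arrays of a line were equal, as in 1.95% of all probe sets. For these the measured spread within that line is 0, which does not describe the precision of the array.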
